A study of Mus musculus with 79 samples.

Results

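The 10 genes described here carry the steps by which long-chain fatty acids enter the mitochondrial matrix and are oxidised, with the coat of the lipid droplet from which such fatty acids can come. They were chosen by name, in the upper case of the deposited table, as CPT1A, SLC25A20 and CPT2 (the carnitine shuttle), ACADVL, ACADL and ACADM (acyl-CoA dehydrogenases), HADHA and HADHB (the trifunctional protein), ETFDH (electron transfer to ubiquinone) and PLIN2 (the droplet coat). They are written in the mouse style (Cpt1a) from here on. They are 10 of the 20465 genes of that table, whose values are TPM, transcript levels corrected for length and scaled to a fixed total in each library. All 10 were above the minimum set for testing, with at least 1 TPM in each of the 78 libraries used. No cut on a measured value was used, but the choice was made with earlier results of these data known.

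The libraries came from mouse T cells loaded with the dye CFSE, whose intensity drops with each division, and driven in culture towards T helper 17 (Th17) cells. Pathogenic cells (Th17p) were grown with IL1b, IL6 and IL23, and non-pathogenic cells (Th17n) with TGFb and IL6. EGCG (epigallocatechin gallate, a green tea catechin) was given at 20 µM with DMSO as its solvent control, and DHEA at 50 µM with methanol as its solvent control. Cells of each of the resulting 8 culture conditions were taken whole (Total) or after sorting those that had divided exactly 1 time (Div.1), which gave 16 groups. The labels speak of 5 mice for each condition. The groups held 5 libraries each, except the DMSO Div.1 groups of Th17p and Th17n, with 4 each. Strain, sex and age of the mice are not given in the sources used here.

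Fatty acid oxidation starts at the outer mitochondrial membrane, where an acyl group is moved from coenzyme A to carnitine. The acyl-carnitine crosses the inner membrane through a carrier and is turned back into acyl-CoA, which is then shortened in rounds of dehydrogenation, hydration, a further dehydrogenation and cleavage. Electrons from the dehydrogenases pass through electron transfer flavoprotein and its ubiquinone oxidoreductase to the respiratory chain. T cells that differentiate into inflammatory effector types are known to rely mainly on glycolysis, and fatty acid oxidation is known as a feature of regulatory and memory T cells. Many genes of the pathway are textbook targets of the PPAR nuclear receptors, which bind as partners of RXR to a direct repeat of the core sequence AGGTCA with 1 base between the copies.

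Because of that known regulation, the windows around the start sites of the 10 genes were searched for this element. The windows ran from 250 bases before to 50 bases after the start in RefSeq's table for GRCm38.p6, and all 10 genes had one. The core sequence AGGTCA, read on both strands as AGGTCA or TGACCT with no mismatch, lay in 4 of 10 windows and in 16.3% of 32851 windows of the same length. The direct repeat AGGTCANAGGTCA, read on both strands with at most 2 of its 12 fixed letters differing, lay in 2 of 10 windows and in 3.86% of all. In Plin2 the core sequence was the second copy of the direct repeat, so that these matches overlap. The 5 stretches with a match follow, 30 bases each, 5′ to 3′ on the strand of the gene, with the matching letters in capitals and the place of the match counted from the start site. A match is a description of the letters and not a binding site.
Cpt1a, chr19:3323195-3323224, plus strand, core sequence from -94: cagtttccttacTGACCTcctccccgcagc
Slc25a20, chr9:108662134-108662163, plus strand, direct repeat from 6, 2 letters differing: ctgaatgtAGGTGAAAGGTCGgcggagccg
Acadvl, chr11:70015498-70015527, minus strand, core sequence from -87: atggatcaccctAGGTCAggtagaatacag
Acadm, chr3:153944864-153944893, minus strand, core sequence from -249: gTGACCTtcgggctccggtgacactgggca
Plin2, chr4:86670263-86670292, minus strand, direct repeat from -225, 2 letters differing: agctttcaGGACCCCTGACCTaagtcagac

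Hadha and Hadhb encode the 2 subunits of a single enzyme and lie head to head on chromosome 5. Hadha runs on the minus strand (chr5:30118304-30155162) and Hadhb on the plus strand (chr5:30155248-30184593). These positions are from the GENCODE annotation. The RefSeq starts used for the windows above differ from these gene ends, and the distance between those starts was not measured. In GENCODE only 85 bases separate the annotated genes, shown here on the plus strand.
Gap between Hadha and Hadhb, chr5:30155163-30155247: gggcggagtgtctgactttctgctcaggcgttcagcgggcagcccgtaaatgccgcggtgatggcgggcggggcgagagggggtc

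The libraries were alike in breadth, with 9338 to 9845 genes at 1 TPM or more. The Th17n EGCG Total library of replicate 1 stood furthest from its group, at a root mean square deviation of 0.378 on the log2 scale against at most 0.259 in the others, and the Plin2 results that rest on it are given with and without it. Well A4 was left out, since its label (Th17n) breaks the layout of its plate row (Th17p). Each group lay in 1 plate row, in adjacent wells except for the gap that A4 leaves in Th17p DMSO Div.1. Plate position and group therefore cannot be told apart. The T cell and Th17 markers Cd3e, Cd4, Il17a and Il17f were above 0 in all 78 libraries, and Rora was at 0 in 1. The sum of 6 B cell markers reached at most 5.61 TPM and that of 6 myeloid markers 2.05 TPM.

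TPM are scaled for transcript length, so levels of different genes can be set side by side. Over the 78 libraries Hadhb had the highest mean level of the 10 genes, 119 TPM, followed by Acadvl at 100.4, Hadha at 66.1, Acadl at 60.8, Etfdh at 46, Acadm at 44.6, Slc25a20 at 36.3, Cpt2 at 17, Plin2 at 12 and Cpt1a at 11.7 TPM. The matrix enzymes thus stood above the carnitine acyltransferases. Some neighbours in this order did not differ beyond the spread between libraries. Etfdh was above Acadm in 49 of 78 libraries, and Plin2 above Cpt1a in 41 of 78. Hadha was above Acadl in 60 of 78, whereas Acadvl was above Hadha in 78 of 78 and Slc25a20 above Cpt2 in 78 of 78.

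Between groups the levels moved by less than those between genes. The highest group mean exceeded the lowest by 1.46 times for Hadha and by 2.60 times for Plin2, the smallest and the widest range of the 10. Cpt1a was close to Plin2, at 2.59 times. For 9 genes the highest mean was in Th17p cells with EGCG. For Cpt1a it was in Th17n Div.1 cells with DHEA, at 16.6 TPM. When the 16 groups were ordered by mean, neighbouring groups nearly always overlapped, with 0 or 1 of 15 neighbouring pairs apart for each gene.

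EGCG went with higher levels of most of the 10 genes in both cell types and both sorts, and with a lower level of none that passed the test. In Th17p Total cells 9 of 10 rose, where 30.1% of the 10672 genes tested were called higher. In Th17p Div.1 cells 8 of 10 rose against 33.7% of genes, in Th17n Total cells 6 of 10 against 21.7%, and in Th17n Div.1 cells 9 of 10 against 28.1%. Genes called lower made up 14.9%, 11.9%, 13.5% and 6.77% in the same order, and 0 of the 10 were among them. Calls are adjusted p-values under 0.05 in limma. The median change of the 10 genes on the log2(TPM + 1) scale was 0.37, 0.43, 0.24 and 0.30 in these 4 comparisons, beside 0.09, 0.12, 0.05 and 0.11 over all genes tested. Slc25a20, Acadvl, Acadl, Hadha, Etfdh and Plin2 were called higher in 4 of 4 comparisons, Acadm and Hadhb in 3 of 4, Cpt1a in 2 of 4 and Cpt2 in 0 of 4. Counted instead by libraries, all EGCG libraries lay above all DMSO libraries for 8, 8, 6 and 9 of the 10 genes, and for 21.7%, 28.3%, 12% and 22.8% of all genes tested. In bulk RNA, fewer cells of a type and less RNA per cell cannot be told apart.

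TPM are shares of a library, and the scale between libraries bears on these counts. Dividing each library by its median ratio to the other libraries moved the median of all genes by -0.06, -0.10, -0.04 and -0.11 log2 in the 4 EGCG comparisons. Increases made up 66.9%, 73.9%, 61.7% and 80.6% of all calls on the deposited scale and 52.6%, 52.02%, 49.9% and 49.6% after this rescaling. The number of the 10 genes called higher became 8, 8, 6 and 4, with 0 called lower, where 23.5%, 22.8%, 17.9% and 15.4% of all genes were called higher and 21.1%, 21%, 17.9% and 15.7% lower. In Th17n Div.1 cells Slc25a20, Acadl, Etfdh and Plin2 kept their call on this scale. Cpt1a, Acadvl, Acadm, Hadha and Hadhb lost it there, with changes of 0.17, 0.02, 0.14, 0.04 and 0.19.

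**Figure D1:**
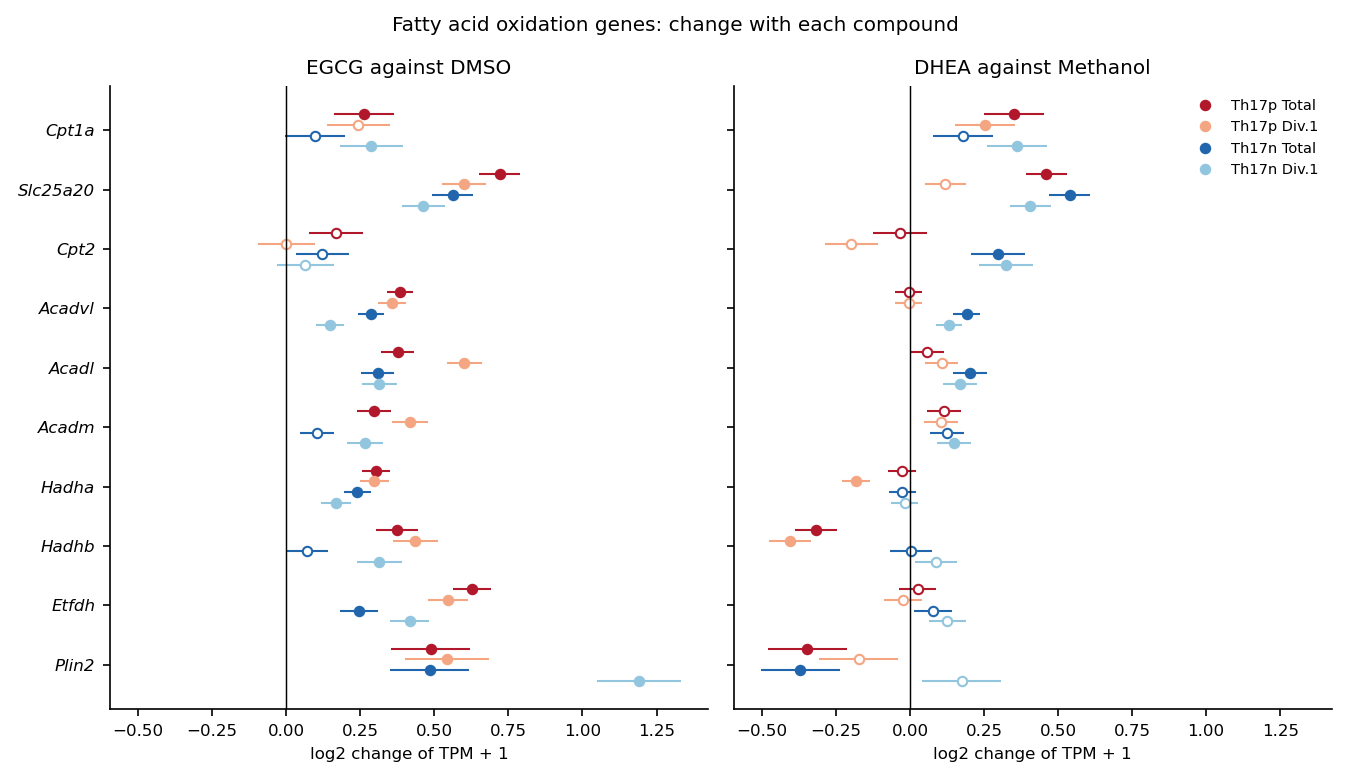
Change of each gene with EGCG against DMSO (left) and DHEA against methanol (right) on the log2(TPM + 1) scale, 1 point per cell type and sort, with bars of 1 standard error; filled points are called at an adjusted p under 0.05. With EGCG no point is called below 0 and Plin2 in Th17n Div.1 cells reaches 1.19, whereas with DHEA the genes part, from Slc25a20 at up to 0.54 to Hadhb at -0.40.

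DHEA moved the same genes unevenly. In Th17p Total cells 2 of 10 rose (Cpt1a and Slc25a20) and 2 fell (Hadhb and Plin2), where 20.9% of all genes were called higher and 26.8% lower. In Th17p Div.1 cells Cpt1a rose and Hadha and Hadhb fell, against 18.1% and 19.2% of genes. In Th17n Total cells Slc25a20, Cpt2, Acadvl and Acadl rose and Plin2 fell, against 20.8% and 25.3%. In Th17n Div.1 cells 6 of 10 rose (the 3 carnitine shuttle genes and the 3 acyl-CoA dehydrogenases) and 0 fell, against 22.1% and 14.6%. The median change of the 10 was 0.01, -0.01, 0.15 and 0.16, beside -0.02, 0.00, -0.01 and 0.05 over all genes. These shares of members are close to those of all genes in the Th17p cells. On the rescaled values 3 of 10 were called higher in Th17n Div.1 cells (19% of all genes), where Acadvl, Acadl and Acadm lost their calls with changes of 0.09, 0.13 and 0.11. The compounds had different solvents, doses and plate columns, so EGCG and DHEA were not tested against each other.

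Markers of other cells moved with some of these comparisons. The summed level of 8 CD8 T and NK cell markers was 9.61 to 15 TPM in Th17p Total with DMSO and 19.4 to 31.9 TPM with EGCG, and 14.4 to 19.3 against 23.2 to 33.2 TPM in Th17p Div.1. With DHEA in Th17n cells it was 31.3 to 45.8 TPM against 17.8 to 25.9 TPM with methanol in Total, and 30.6 to 44.6 against 19.9 to 36.3 TPM in Div.1. In Th17n cells with EGCG the sums were 14.1 to 22.8 TPM in Total against 11.2 to 20.4 TPM with DMSO. In the sum, Ncr1, Gzma and Klrb1c were at 0 in 74, 75 and 71 of 78 libraries, and Cd8a and Eomes reached at most 0.557 and 0.692 TPM. Cd8b1, Klrd1 and Nkg7 reached 26.9, 24.2 and 22.9 TPM, and were at 0 in 0, 8 and 2 libraries. Among the Th17 markers Il17f had by far the widest range, 96.7 to 8147 TPM over all libraries, followed by Il17a at 1.44 to 549 TPM. Cd3e ran from 89.3 to 174 TPM, Cd4 from 67.9 to 186 TPM and Rora from 0 to 7.88 TPM. The summed level of Cd3e, Cd4, Rora, Il17a and Il17f, which thus rests mainly on Il17f, moved in different directions. With DMSO and EGCG it was 2117 to 2982 and 443 to 701 TPM in Th17p Total, 2285 to 2679 and 716 to 811 TPM in Th17p Div.1, 6566 to 7946 and 6231 to 7694 TPM in Th17n Total, and 3688 to 4602 and 7581 to 8700 TPM in Th17n Div.1. With methanol and DHEA it was 1518 to 2151 and 389.7 to 572 TPM in Th17p Total, 1082 to 1831 and 444 to 558 TPM in Th17p Div.1, 4615 to 5991 and 965 to 1653 TPM in Th17n Total, and 3436 to 4421 and 1308 to 2459 TPM in Th17n Div.1. It was thus lower without overlap in 6 of 8 comparisons, higher without overlap in 1 and overlapping in 1. The B cell sum was low but higher with DHEA than with methanol, at 2.28 to 5.61 against 0.996 to 1.85 TPM in Th17n Total, 3.38 to 4.45 against 1.17 to 2.24 TPM in Th17n Div.1 and 1.21 to 2.82 against 0.4445 to 1.09 TPM in Th17p Total, without overlap in these 3, while the ranges overlapped in Th17p Div.1. The sum of 3 gamma delta T and innate lymphoid cell markers was at most 1.72 TPM, and was higher with EGCG than with DMSO without overlap in Th17p Total (0.228 to 0.607 against 0 to 0.202 TPM), Th17p Div.1 (0.374 to 0.998 against 0.223 to 0.362 TPM) and Th17n Total (0.394 to 0.841 against 0.0204 to 0.210 TPM). The mean of this sum was also higher with DHEA than with methanol, with overlapping ranges. It was 0.447 against 0.217 TPM in Th17p Total and 0.452 against 0.182 TPM in Th17p Div.1. In Th17n it was 0.836 against 0.156 TPM in Total and 0.436 against 0.227 TPM in Div.1. The part of these markers in the changes of the 10 genes was not tested.

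Slc25a20 encodes the carnitine-acylcarnitine translocase, the carrier of the inner mitochondrial membrane, and rose with EGCG in 4 of 4 comparisons. In Th17p Total cells its levels were 27.2, 27.7, 28.7, 31.6 and 31.9 TPM with DMSO and 45.4, 46.2, 49.1, 52.2 and 52.7 TPM with EGCG. The groups did not overlap, and the mean was 1.67 times higher with EGCG. The log2 change was 0.72 ± 0.07 (SE, n = 5 and 5, adjusted p = 6.50e-14). In Th17n Total cells the levels were 28.1, 28.1, 28.5, 30.1 and 30.8 TPM with DMSO and 40.2, 42.9, 43.7, 44.9 and 45.7 TPM with EGCG. The gap between these groups was as clean, at a log2 change of 0.56 ± 0.07. In the Div.1 cells the changes were 0.60 ± 0.07 (Th17p) and 0.46 ± 0.07 (Th17n), again with no overlap. The difference of the EGCG change between cell types was 0.16 ± 0.10 in Total and 0.14 ± 0.10 in Div.1, and neither was called (adjusted p = 0.28 and 0.43).

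With DHEA the same carrier rose in 3 of 4 comparisons. In Th17n Total cells its levels were 26.8, 29.9, 30.5, 30.8 and 31.7 TPM with methanol and 41.9, 42.9, 43.9, 44.9 and 46.1 TPM with DHEA, with no overlap. That change was 0.54 ± 0.07 (adjusted p = 1.05e-09). In Th17p Total cells the groups were also apart, at 24.6 to 28.8 TPM against 32.4 to 43.7 TPM. In Th17p Div.1 cells, by contrast, methanol gave 23.8, 30.2, 30.5, 30.7 and 35.4 TPM and DHEA 27.4, 30.9, 34.1, 35.5 and 35.6 TPM. These groups overlapped almost fully, at a change of 0.12 ± 0.07 (adjusted p = 0.18). The DHEA change was smaller in Div.1 than in Total in Th17p cells, by -0.34 ± 0.10 (adjusted p = 0.017), and smaller in Th17p than in Th17n in Div.1, by -0.29 ± 0.10 (adjusted p = 0.034). Without the Th17p DHEA Div.1 library of replicate 9 the first of these differences was -0.28 and no longer called, and the second was lost without any 1 of 10 libraries. Fitting the groups of the comparison alone, or leaving out well columns 1 and 10, ended the call of both.

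**Figure D2:**
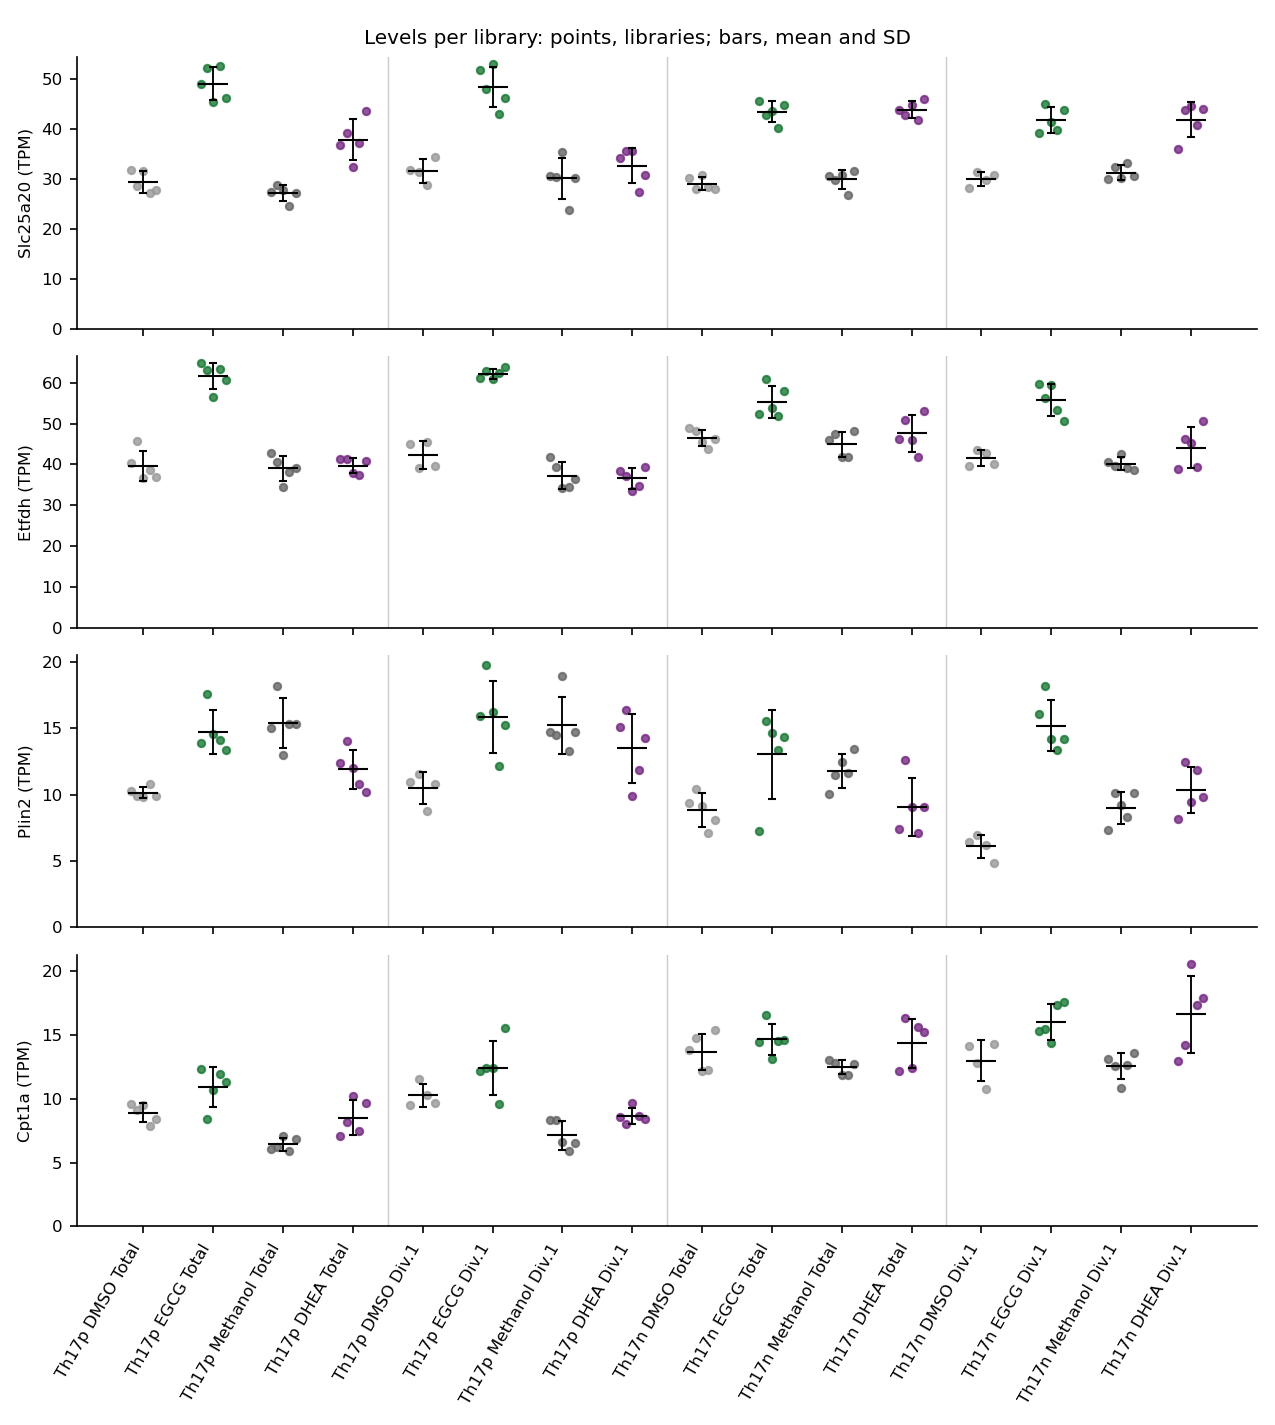
Levels in TPM (axes from 0) of Slc25a20, Etfdh, Plin2 and Cpt1a in every library by group, with the group mean and SD as bars. EGCG libraries of Slc25a20 (39.2 TPM and above) lie above every DMSO library, and the methanol libraries of Plin2 lie above DMSO in Th17p cells.

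Cpt1a is the liver-type carnitine palmitoyltransferase of the outer membrane and the rate-limiting step of entry. With EGCG it was called higher in 2 comparisons and not called in the other 2. Whether its changes differed from those of the other genes was not tested. In Th17p Total cells it was at 7.86, 8.44, 9.11, 9.51 and 9.61 TPM with DMSO and at 8.42, 10.7, 11.3, 12 and 12.3 TPM with EGCG. Only the lowest EGCG library lay within the DMSO range. The change of 0.26 ± 0.10 passed the test (adjusted p = 0.029), but not on the rescaled values (0.19), nor without any 1 of DMSO replicates 4 and 5 or EGCG replicates 1, 4 and 5. In Th17n Div.1 cells DMSO gave 10.8, 12.8, 14.1 and 14.3 TPM and EGCG 14.4, 15.3, 15.5, 17.4 and 17.6 TPM. The groups were just apart, at 0.29 ± 0.11 (adjusted p = 0.030), and this call was lost without DMSO replicate 2 or 3 or EGCG replicate 4 or 5. In Th17p Div.1 the change was 0.24 ± 0.11 (adjusted p = 0.056) and in Th17n Total 0.10 ± 0.10 (adjusted p = 0.49).

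With DHEA, Cpt1a rose in 3 of 4 comparisons. In Th17p Total cells methanol gave 5.87, 6.08, 6.23, 6.87 and 7.06 TPM and DHEA 7.06, 7.48, 8.21, 9.67 and 10.2 TPM. The highest methanol library and the lowest DHEA library were at the same level, and the others were apart, at a change of 0.35 ± 0.10 (adjusted p = 0.0028). These DHEA levels cover the range of the DMSO libraries of the same cells, and methanol itself went with a lower Cpt1a, as given with the solvents. In Th17n Div.1 cells DHEA gave 13, 14.2, 17.3, 17.9 and 20.6 TPM against 10.9, 12.6, 12.6, 13.1 and 13.6 TPM with methanol. That is the widest spread of Cpt1a in any group, and the change was 0.36 ± 0.10 (adjusted p = 0.0032). In Th17p Div.1 it was 0.25 ± 0.10 (adjusted p = 0.040), a call lost without any 1 of methanol replicates 8, 9 and 10 or DHEA replicates 6, 8, 9 and 10. The same call was lost with no filter on low values, with the compared groups alone, with well A4 in its labelled group and without well columns 1 and 10 (adjusted p = 0.067, 0.081, 0.060 and 0.12). In Th17n Total it was 0.18 ± 0.10 (adjusted p = 0.15).

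Cpt2, which returns the acyl group to coenzyme A on the matrix side, was the only one of the 10 with no call for EGCG. Its levels in Th17p Total were 17.6, 18, 19.4, 19.7 and 20.6 TPM with DMSO and 19.4, 20.1, 20.1, 22.1 and 26.1 TPM with EGCG. These groups overlapped, and the changes over the 4 comparisons ran from -0.00 ± 0.10 in Th17p Div.1 to 0.17 ± 0.09 in Th17p Total. With DHEA it rose in Th17n cells. In Th17n Div.1 methanol gave 11.6, 12.9, 13.7, 13.8 and 14.3 TPM and DHEA 14.8, 15.9, 16.5, 18.4 and 18.7 TPM. The groups did not overlap, at 0.32 ± 0.09 (adjusted p = 0.0032), and the Total cells changed by 0.30 ± 0.09 (adjusted p = 0.0049). In Th17p cells the values were -0.03 ± 0.09 in Total and -0.20 ± 0.09 in Div.1, neither called. The DHEA change differed between the cell types in Div.1 by -0.52 ± 0.13 (Th17p minus Th17n, adjusted p = 0.0023), the widest difference between the cell types with DHEA among the 10 genes. In Total that difference was -0.33 ± 0.13 (adjusted p = 0.072).

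The 3 acyl-CoA dehydrogenases take very long, long and medium chains in turn. With EGCG, Acadvl, Acadl and Acadm changed by 0.38, 0.38 and 0.30 in Th17p Total, by 0.36, 0.60 and 0.42 in Th17p Div.1, by 0.29, 0.31 and 0.10 in Th17n Total and by 0.15, 0.31 and 0.27 in Th17n Div.1. All but Acadm in Th17n Total were called. Acadvl in Th17p Total cells was at 94.9, 95.6, 96.9, 97.8 and 100.4 TPM with DMSO and at 124, 126, 127, 128 and 131 TPM with EGCG. The EGCG libraries lay together above every DMSO library, at a change of 0.38 ± 0.04 (adjusted p = 6.38e-11). Acadl in Th17p Div.1 was at 54.98, 59.2, 61.8 and 65.1 TPM with DMSO and at 84.9, 88.2, 91.8, 96.3 and 98.0 TPM with EGCG. This was the widest change of the 3 genes, 0.60 ± 0.06 (adjusted p = 1.85e-13) or 1.52 times in mean TPM. Acadm in Th17p Total was at 43.2, 44.7, 45.1, 45.5 and 45.6 TPM with DMSO and at 54.2, 54.5, 54.6, 55.8 and 56.9 TPM with EGCG, again apart, at 0.30 ± 0.06.

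In Th17n cells the changes of the same enzymes with EGCG ran from 0.10 to 0.31. Acadvl was at 91.5, 92.8, 93.2 and 95.6 TPM with DMSO and at 99.6, 101, 104, 105 and 107 TPM with EGCG in Div.1, with no overlap. The change of 0.15 ± 0.05 was called, but not on the rescaled values (0.02). Acadm in Th17n Total was at 44.3 to 47.8 TPM with DMSO and at 48.6 to 51.6 TPM with EGCG without overlap, yet the change of 0.10 ± 0.06 was not called (adjusted p = 0.15). The EGCG change was larger in Th17p than in Th17n in Div.1 for Acadvl, by 0.21 ± 0.07 (adjusted p = 0.020), and for Acadl, by 0.29 ± 0.08 (adjusted p = 0.010). In Total the differences were 0.10 ± 0.06 and 0.07 ± 0.08, not called, and for Acadm they were 0.19 ± 0.08 (Total) and 0.15 ± 0.09 (Div.1), not called either, although the Total difference of Acadm was called with the compared groups fitted alone (adjusted p = 0.0100).

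With DHEA the dehydrogenases moved in Th17n cells by 0.13 to 0.20 log2. Acadl in Th17n Total was at 43.7, 46.4, 49.6, 50.5 and 50.7 TPM with methanol and at 49.9, 54.3, 56.7, 58.5 and 58.7 TPM with DHEA. The lowest DHEA library lay within the methanol range, and the change was 0.20 ± 0.06 (adjusted p = 0.0019). Acadvl changed by 0.19 ± 0.04 in Th17n Total and 0.13 ± 0.04 in Div.1, both with overlap. In Th17p cells Acadvl stood at 94.7 ± 5.56 TPM with methanol and 94.4 ± 3.88 TPM with DHEA in Total (SD, n = 5 each), and neither Acadl nor Acadm was called in Th17p. After rescaling Acadm was called higher with DHEA in Th17p Total (0.16, adjusted p = 0.012) and in Th17n Total (0.17, adjusted p = 0.0084). For Acadvl the DHEA change differed between the cell types in Total by -0.20 ± 0.06 (adjusted p = 0.025), a call lost without Th17p methanol replicate 10, Th17n methanol replicate 7 or 9, or Th17n DHEA replicate 7 or 10. In Th17n Div.1 the calls of Acadvl, Acadl and Acadm were lost without DHEA replicate 10, and each also without other single libraries (methanol 7 or 8 for Acadvl, methanol 9 for Acadl, methanol 6 or 7 and DHEA 6 or 7 for Acadm).

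Hadha and Hadhb encode the alpha and beta subunits of the mitochondrial trifunctional protein, which carries out the remaining steps of each round on long chains. With EGCG both rose in Th17p cells. Hadha in Th17p Total was at 61.8, 63.2, 67.5, 69.3 and 69.9 TPM with DMSO and at 78.3, 80.02, 81.0, 83.1 and 88.0 TPM with EGCG, and Hadhb at 108, 109, 111, 112 and 115 TPM and at 127, 139, 148, 150.4 and 159.5 TPM. Neither gene's groups overlapped, at changes of 0.30 ± 0.05 and 0.37 ± 0.07. In Th17n Total, Hadha went from 58.7 to 64.1 TPM up to 71.1 to 77.6 TPM, while Hadhb was at 121, 121, 123, 127 and 138 TPM with DMSO and at 128, 129.7, 130.1, 132 and 140.3 TPM with EGCG. There the Hadhb groups overlapped, and its change was 0.07 ± 0.07 (adjusted p = 0.48) beside 0.24 ± 0.05 for Hadha. In Th17n Div.1 both rose without overlap, Hadhb by 0.31 ± 0.08 and Hadha by 0.17 ± 0.05. The EGCG change of Hadhb was larger in Th17p than in Th17n in Total by 0.30 ± 0.10 (adjusted p = 0.022), and this call was lost without Th17p EGCG replicate 2, Th17n DMSO replicate 2 or well columns 1 and 10 (adjusted p = 0.079). In Div.1 the difference was 0.12 ± 0.11 and not called.

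With DHEA, Hadhb fell in both sorts of Th17p cells and Hadha in Div.1. Hadhb in Total was at 106, 118, 122, 123 and 135 TPM with methanol and at 87.7, 92.7, 97.5, 103 and 103 TPM with DHEA. The groups did not overlap, and it fell by 0.32 ± 0.07 on the log2 scale (adjusted p = 0.00014). Hadha in the same libraries stood at 63.7 ± 1.87 TPM with methanol and 62.6 ± 5.05 TPM with DHEA (SD, n = 5 each), a change of -0.03 ± 0.05. In Div.1, Hadhb was at 103, 114, 115, 119 and 124 TPM with methanol and at 64.3, 78.2, 95.6, 97.0 and 103 TPM with DHEA. The DHEA libraries were spread widely there (SD 16.1 TPM), and the highest of them reached the lowest methanol library. The change was -0.40 ± 0.07 for Hadhb and -0.18 ± 0.05 for Hadha (adjusted p = 4.04e-06 and 0.0011).

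In Th17n cells DHEA left Hadhb at 0.01 ± 0.07 in Total and 0.09 ± 0.07 in Div.1, neither called. The DHEA change of Hadhb thus differed between the cell types by -0.32 ± 0.10 in Total (adjusted p = 0.019) and -0.49 ± 0.10 in Div.1 (adjusted p = 0.00023). The first was lost without Th17p methanol replicate 7, and the second kept its call without any single library. For Hadha the differences were -0.00 ± 0.07 and -0.17 ± 0.07, neither called. Whether the change of Hadhb differed from that of Hadha was not tested.

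**Figure D3:**
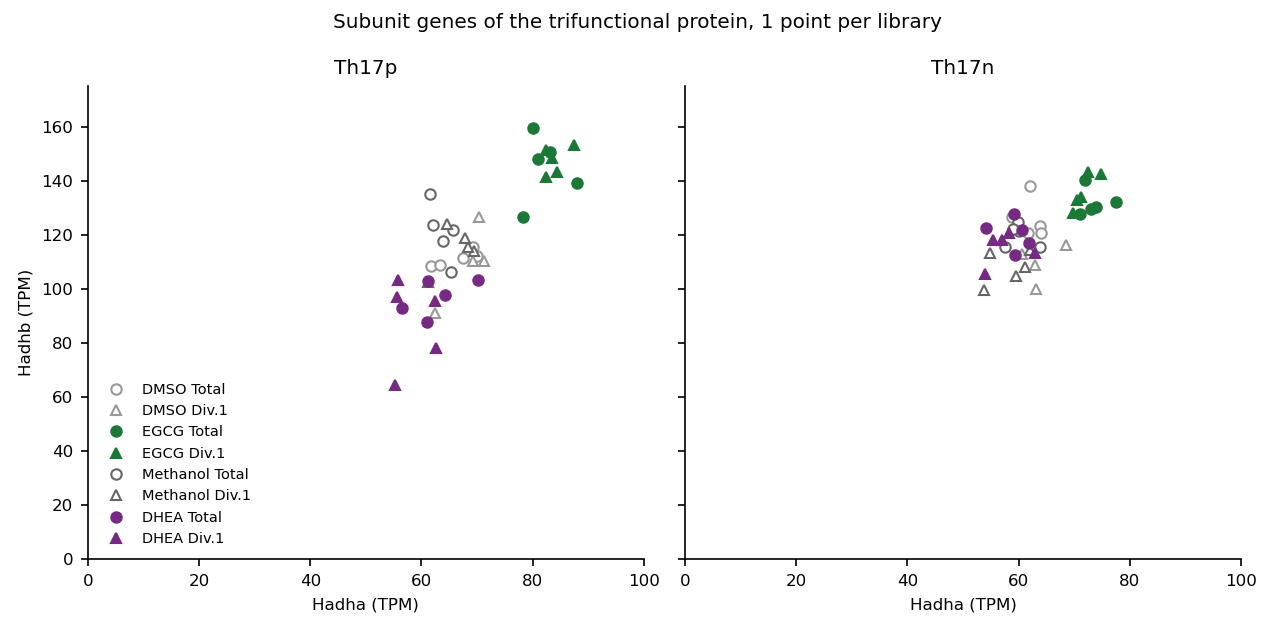
Hadhb against Hadha in TPM, both axes from 0, 1 point per library, Th17p cells at left and Th17n cells at right, colours by treatment and shapes by sort. EGCG libraries of Th17p cells lie high on both axes, and DHEA libraries of Th17p cells lie low on Hadhb, down to 64.3 TPM.

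Etfdh, the oxidoreductase that hands electrons from the flavoprotein to ubiquinone, rose by the second largest amount with EGCG in Th17p Total cells. Its levels there were 36.6, 37, 38.6, 40.4 and 45.7 TPM with DMSO and 56.5, 60.6, 63.2, 63.3 and 64.7 TPM with EGCG. The lowest EGCG library was well above the highest DMSO library, at a change of 0.63 ± 0.06 (adjusted p = 4.44e-13) or 1.55 times in mean TPM. In Th17n Total cells DMSO gave 43.7, 45.5, 46.2, 48.1 and 48.8 TPM and EGCG 51.8, 52.3, 53.8, 57.9 and 60.8 TPM. These groups were closer but still apart, at 0.25 ± 0.06 (adjusted p = 0.0016). The EGCG change differed between the cell types in Total by 0.38 ± 0.09 (adjusted p = 0.0010), and no single library ended that call. In Div.1 the changes were 0.55 ± 0.07 in Th17p and 0.42 ± 0.07 in Th17n, and their difference of 0.13 ± 0.10 was not called. With DHEA the 4 changes of Etfdh ran from -0.02 to 0.13, none called.

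Plin2 coats lipid droplets and is not an enzyme of oxidation, and it had the widest range of group means of the 10 genes, just above that of Cpt1a. In Th17n Div.1 cells it was at 4.87, 6.19, 6.42 and 6.92 TPM with DMSO, its lowest group, and at 13.4, 14.2, 14.2, 16.1 and 18.2 TPM with EGCG. Every EGCG library was above every DMSO library, the mean was 2.49 times higher, and the change of 1.19 ± 0.14 (adjusted p = 2.86e-10) was the largest of any member with either compound. In Th17n Total cells DMSO gave 7.07, 8.06, 9.15, 9.38 and 10.4 TPM and EGCG 7.22, 13.4, 14.4, 14.7 and 15.5 TPM. The value of 7.22 TPM belongs to the library that stands apart, and it alone overlapped the DMSO range. The change was 0.48 ± 0.13 (adjusted p = 0.0030) with that library and 0.67 without it. In Th17p cells the changes were 0.49 ± 0.13 in Total and 0.54 ± 0.14 in Div.1, with no overlap in either. The call in Th17n Total was lost when the compared groups were fitted alone (adjusted p = 0.076).

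The EGCG change of Plin2 in Th17n cells was larger in Div.1 than in Total by 0.71 ± 0.19 (adjusted p = 0.0085). Without the library that stands apart it was 0.53 and still called (adjusted p = 0.037). With well A4 in its labelled group it was 0.56 (adjusted p = 0.064), and without well columns 1 and 10 it was 0.51 (adjusted p = 0.12). With the compared groups alone the call of Plin2 was also lost (adjusted p = 0.060), and Hadhb was called instead (0.24, adjusted p = 0.029). In Div.1 the EGCG change was smaller in Th17p than in Th17n, by -0.65 ± 0.20 (adjusted p = 0.016), and this call was lost with well A4 in its labelled group (-0.50) and without Th17n DMSO replicate 4 (-0.56). In Total the cell types differed by 0.00 ± 0.19, or -0.18 without the library that stands apart. Well A4 itself read 10.9 TPM for Plin2. That is above the other libraries of its labelled group, Th17n DMSO Div.1 (4.87 to 6.92 TPM), and within Th17p DMSO Div.1 (8.75 to 11.5 TPM).

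With DHEA, Plin2 fell in both Total comparisons. In Th17p Total methanol gave 13, 15, 15.3, 15.3 and 18.2 TPM and DHEA 10.2, 10.8, 12, 12.4 and 14.1 TPM. Those groups overlapped in 1 library each, at -0.35 ± 0.13 (adjusted p = 0.027). In Th17n Total methanol gave 10.02, 11.4, 11.7, 12.4 and 13.5 TPM and DHEA 7.09, 7.40, 9.05, 9.09 and 12.6 TPM. There 1 DHEA library lay within the methanol range, and the change was -0.37 ± 0.13 (adjusted p = 0.018). Both calls were lost without some single libraries, in Th17p methanol replicate 7 or DHEA replicate 9 or 10 and in Th17n methanol replicate 10 or DHEA replicate 6 or 9, and both without well columns 1 and 10 (-0.30 and -0.33). In Th17p the call was also lost on the rescaled values (-0.31). In Div.1 the changes were -0.17 ± 0.13 and 0.18 ± 0.13, not called.

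Between the cell types in solvent, Cpt1a was lower and Cpt2 and Plin2 were higher in Th17p. In Total 5 of 10 genes were higher and 2 lower in Th17p, where 30.9% and 26.5% of all genes were called, and in Div.1 4 of 10 were higher and 1 lower, against 34.9% and 25.7%. Cpt1a stood at 8.90 ± 0.743 TPM with DMSO and 6.42 ± 0.512 TPM with methanol in Th17p Total, and at 13.7 ± 1.43 and 12.5 ± 0.561 TPM in Th17n Total (SD, n = 5 each). No solvent library of Th17p reached the lowest of Th17n in Total, and the difference over both solvents was -0.71 ± 0.07 (adjusted p = 6.65e-14). In Div.1 it was -0.53 ± 0.08, with overlap between 10.8 and 11.53 TPM.

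Cpt2, on the other side of the same shuttle, was higher in Th17p by 0.24 ± 0.06 in Total and 0.38 ± 0.07 in Div.1. Slc25a20, which lies between them in the route, did not pass the test in either sort (-0.06 ± 0.05 and 0.00 ± 0.05). The 3 shuttle genes therefore had 3 different relations to cell type. Acadvl was higher in Th17p by 0.13 ± 0.03 in both sorts and Hadha by 0.09 ± 0.03 and 0.14 ± 0.03. Etfdh was lower in Th17p in Total, by -0.21 ± 0.04 (adjusted p = 3.56e-05), and at -0.04 ± 0.05 in Div.1. Plin2 was higher in Th17p by 0.27 ± 0.09 in Total and 0.70 ± 0.10 in Div.1. Acadl differed by 0.10 ± 0.04 in Total (adjusted p = 0.026), a call that was lost on the rescaled values, without well columns 1 and 10, and without any 1 of 5 libraries (Th17p DMSO replicate 2, Th17p methanol 8 and 10, Th17n DMSO 3 and Th17n methanol 9). Acadm and Hadhb were not called in either sort.

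**Figure D4:**
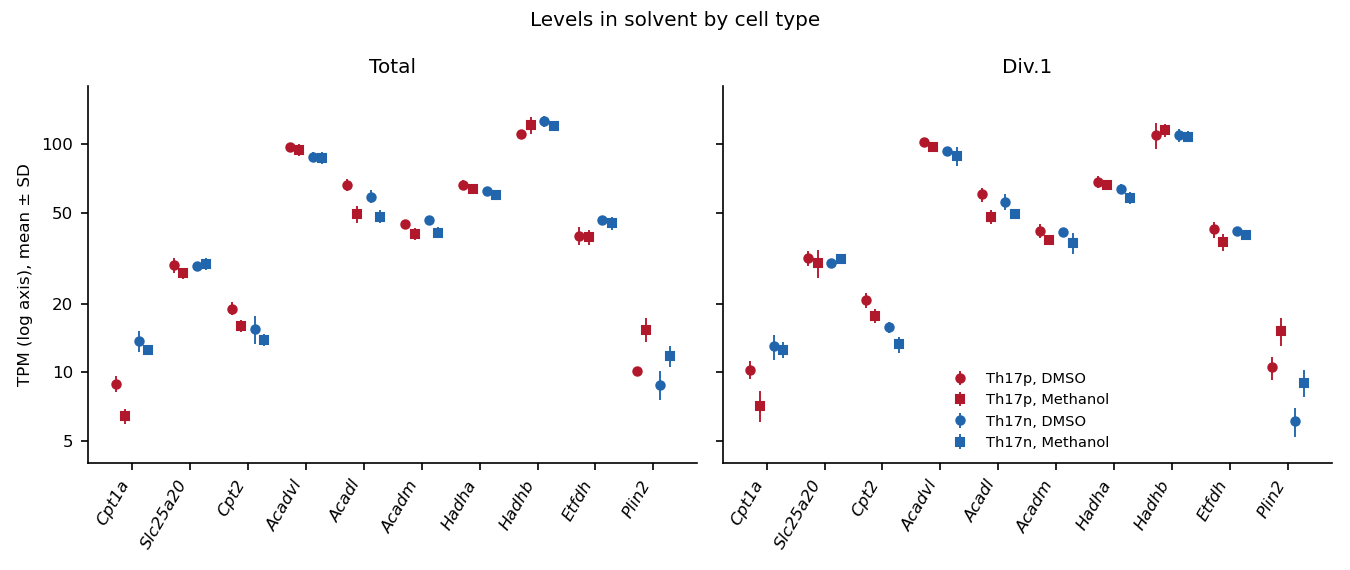
Mean level in TPM (log axis) with SD of each gene in the solvent groups, Total at left and Div.1 at right, red for Th17p and blue for Th17n, circles for DMSO and squares for methanol. Cpt1a is lower in Th17p (6.42 and 8.90 TPM against 12.5 and 13.7 TPM in Total), and Plin2 is higher with methanol than with DMSO.

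Between cells sorted after 1 division and the whole culture, 4 of these genes were called in Th17n and 0 in Th17p. Whether the difference between the sorts itself differed between the cell types was not tested. In Th17p 0 of 10 genes were called by limma in either direction, where 19.4% of all genes were. At an unadjusted p under 0.05 there were 4 of 10 in Th17p and 4 of 10 in Th17n. In Th17p Slc25a20 was called higher in Div.1 on the rescaled values (0.13, adjusted p = 0.049), where 1183 of 10672 genes were. Acadm was called lower there without well columns 1 and 10 (-0.12, adjusted p = 0.049), where 1253 of 10672 genes were. In Th17n 4 of 10 were lower in Div.1, against 16.1% of all genes called lower, and 0 of 10 higher against 5.8%. On the rescaled values the share of increases among all calls in Th17n moved from 26.5% to 47.5%, and of the 10 genes 3 were lower (11.1% of genes) and 1 higher (10.1%). The 4 were Plin2 at -0.41 ± 0.10, Hadhb at -0.17 ± 0.05, Acadm at -0.16 ± 0.04 and Etfdh at -0.16 ± 0.05. Hadhb lost its call on the rescaled values (-0.13), where Acadvl gained one (0.10), and Etfdh lost its call without well columns 1 and 10 (-0.12). Plin2 in Th17n went from 7.07 to 10.4 TPM in Total to 4.87 to 6.92 TPM in Div.1 with DMSO, which did not overlap, and from 10.02 to 13.5 TPM to 7.33 to 10.1 TPM with methanol, which touched.

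Differences of the responses to the compounds were counted between the sorts and between the cell types, beside the shares of all genes. With 4 or 5 libraries per group, a missing call does not show that the responses were equal. For EGCG 0 of 10 responses differed in Th17p (2.57% of all genes, with 1 of the 10 at an unadjusted p under 0.05) and 1 of 10 in Th17n (Plin2, against 10.8% of genes called higher in Div.1). For DHEA 1 of 10 differed in Th17p (Slc25a20, against 4.31% called lower) and 0 of 10 in Th17n (6.79% either way, with 1 of the 10 at an unadjusted p under 0.05). Between the cell types, 2 of 10 EGCG responses were larger in Th17p in Total (12.4% of genes) and 0 smaller (7.55%), and in Div.1 2 were larger and 1 smaller (9.12% and 8.38%). For DHEA 2 of 10 were smaller in Th17p in Total (6.73%) and 3 of 10 in Div.1 (9.39%), and 0 were larger in either (8.06% and 6.49%). On the rescaled values Slc25a20 was not called between the cell types (-0.25), and the EGCG difference of Acadvl (-0.23, Th17n) and the DHEA difference of Hadha (-0.20, Th17p) between the sorts were. The same rescaling moved the share of increases among all calls from 62.1% to 51.8% for EGCG between the cell types in Total. Between the sorts it moved that share from 52.6% to 34.05% (EGCG, Th17p), from 81.0% to 52.3% (EGCG, Th17n), from 56.5% to 41.8% (DHEA, Th17p) and from 75.3% to 39.9% (DHEA, Th17n).

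The solvents themselves went with differences in 4 of the 10 genes, although few genes in all differed between them. Methanol and DMSO cultures had different well columns, so solvent and side of the plate cannot be told apart. In Th17p Total Cpt1a and Acadl were lower and Plin2 higher with methanol, where 1.73% and 5.1% of all genes were called, and in Th17p Div.1 the same 3 genes were called in the same directions (2.11% and 2.63%). In Th17n Total Acadl and Acadm were lower (2.25%) and 0 of 10 higher (4.41%), and in Th17n Div.1 Plin2 was higher (4.89%) and 0 lower (1.21%). On the rescaled values the share of increases among all calls became 69.7% instead of 55.5% in Th17p Div.1 and 59.01% instead of 80.2% in Th17n Div.1. In the latter Acadl, Acadm and Hadha were then lower, at -0.21, -0.21 and -0.17 (2.41% of genes).

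Acadl in Th17p Total was at 62.5, 64.4, 64.7, 67 and 73.2 TPM with DMSO and at 45.1, 46.7, 46.8, 53.8 and 54.6 TPM with methanol. The groups were apart, at -0.42 ± 0.06 (adjusted p = 9.59e-08). Cpt1a in the same libraries differed by -0.42 ± 0.10 and in Th17p Div.1 by -0.48 ± 0.11, without overlap in either. Plin2 in Th17p Total was at 9.83, 9.91, 9.92, 10.3 and 10.8 TPM with DMSO and, as given above, at 13 to 18.2 TPM with methanol, a difference of 0.55 ± 0.13 (adjusted p = 0.0045). The methanol level of Plin2 in Th17p Total, 15.4 ± 1.86 TPM, was thus beside that of EGCG, 14.7 ± 1.66 TPM (SD, n = 5 each), and the level with DHEA, 11.9 ± 1.49 TPM, lay between DMSO and methanol. The Plin2 call was lost in Th17p Div.1 without DMSO replicate 3 or 5 or methanol replicate 8, and with no filter, the compared groups alone or well A4 in its labelled group (adjusted p = 0.050, 0.056 and 0.056). In Th17n Div.1 it was lost without DMSO replicate 4 or methanol replicate 7 or 10, and with the compared groups alone, with well A4 or without well columns 1 and 10 (adjusted p = 0.084, 0.12 and 0.076). In Th17p Div.1 the Cpt1a call was lost with the compared groups alone (adjusted p = 0.063). The Acadm call in Th17n Total was lost without any 1 of DMSO replicates 1, 3 and 5 or methanol replicates 6, 8 and 9.

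Other genes of the pathway came from lists by function, of which 85 genes are in the table. The counts that follow are in the order Th17p Total, Th17p Div.1, Th17n Total and Th17n Div.1, and are to be read against all genes tested, of which those called with EGCG were 30.1%, 33.7%, 21.7% and 28.1% higher and 14.9%, 11.9%, 13.5% and 6.77% lower, and with DHEA 20.9%, 18.1%, 20.8% and 22.1% higher and 26.8%, 19.2%, 25.3% and 14.6% lower. Of 14 other enzymes of mitochondrial oxidation, all tested, 8, 8, 8 and 7 rose with EGCG and 0 fell. On the rescaled values 6, 6, 8 and 5 rose and 1, 2, 0 and 0 fell. Their median changes were 0.21, 0.29, 0.22 and 0.18. With DHEA 5, 3, 6 and 5 rose and 3, 4, 3 and 1 fell, and on the rescaled values 6, 3, 7 and 5 rose and 2, 4, 2 and 2 fell. Hsd17b10, one of the most abundant of them and a dehydrogenase that also acts on branched-chain substrates, rose with EGCG in Th17n cells (0.20 ± 0.05 and 0.22 ± 0.05) and was at -0.05 and -0.07 in Th17p, and on the rescaled values it was called lower in Th17p (-0.13 and -0.19) and lost its call in Th17n Div.1 (0.09). Eci2, an enoyl-CoA isomerase, likewise rose with EGCG in Th17n (0.24 and 0.29) and was at -0.02 and -0.08 in Th17p, the latter called lower after rescaling (-0.20). It fell by 0.13 with DHEA in Th17p Total, which was lost after rescaling (-0.09). Hadh, the short-chain hydroxyacyl-CoA dehydrogenase, rose with EGCG in both Total comparisons (0.12 and 0.19, the first not called after rescaling) and fell with DHEA in 3 of 4, by 0.16, 0.16 and 0.19. Acaa2, the mitochondrial thiolase, rose with EGCG in Th17p (0.21 and 0.35) and was at 0.09 and 0.01 in Th17n. With DHEA it fell in Th17p Div.1 and Th17n Total, by 0.15 and 0.24.

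The flavoprotein that feeds Etfdh is made of Etfa and Etfb. Etfb rose with EGCG in 4 of 4 comparisons, by 0.22 ± 0.04, 0.31 ± 0.04, 0.12 ± 0.04 and 0.22 ± 0.04 in the order above, and fell with DHEA in 4 of 4, by 0.34, 0.33, 0.23 and 0.22 on the log2 scale. The Th17n increases were not called on the rescaled values (0.08 and 0.09), whereas all 4 decreases were. Etfdh itself had no call with DHEA. Etfa rose with EGCG in Th17p Div.1 (0.16 ± 0.05, and 0.04 and not called on the rescaled values) and was not called in the other 7. Of 6 other genes of the carnitine system 2, 2, 0 and 1 rose with EGCG and 0 fell, or 1, 1, 0 and 0 rose and 0, 1, 0 and 0 fell on the rescaled values. Crot, the peroxisomal carnitine octanoyltransferase, rose with EGCG in 3 of 4 (0.23, 0.32 and 0.35), none of them called after rescaling, and with DHEA in 3 of 4 (0.22, 0.36 and 0.35). Slc22a5, the carnitine importer, was called in 1 of 8, higher with DHEA in Th17n Total (0.24), and Crat, the carnitine acetyltransferase, in 0 of 8. Cpt1b, the muscle-type counterpart of Cpt1a, was at most 1.88 TPM in any library.

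Of 13 peroxisomal oxidation genes 11 were tested, of which 7, 6, 6 and 7 rose with EGCG and 0 fell, or 4, 6, 5 and 2 rose and 1 fell in each on the rescaled values. Scp2, a sterol carrier and thiolase of peroxisomes, was called higher with both compounds in 8 of 8 comparisons, by 0.11 to 0.34. After rescaling it was not called with EGCG in Th17n (0.07 and -0.00, the latter turning the direction). Hsd17b4, the peroxisomal bifunctional enzyme, rose with EGCG in 4 of 4 (0.22 to 0.30), but not in Th17n Div.1 after rescaling (0.12), and fell by 0.13 with DHEA in Th17p Total (-0.09 and not called after rescaling). Acaa1a, a peroxisomal thiolase, rose with EGCG in both Total comparisons (0.19 and 0.18, the first not called after rescaling) and with DHEA in 3 of 4 (0.42, 0.42 and 0.16, the last not called after rescaling). Of 14 genes of lipid droplets and lipolysis 9 were tested, and 3, 4, 3 and 5 rose and 1, 2, 0 and 0 fell with EGCG, or 3, 4, 3 and 3 rose and 3, 3, 0 and 0 fell on the rescaled values. Pnpla2, the adipose triglyceride lipase, was called in 1 of 8, higher with DHEA in Th17n Div.1 (0.20). After rescaling that call was lost (0.16) and one in Th17n Total was gained (0.18). Lipa, the lysosomal acid lipase, rose in 8 of 8 comparisons, by 0.29 to 0.62. Hilpda, a droplet protein that restrains lipolysis, rose in 7 of 8, most with DHEA in Th17p Div.1 (0.87 ± 0.09), and was at 0.14 ± 0.09 with DHEA in Th17n Total.

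Of 11 genes of fatty acid uptake and activation 8 were tested, and 2, 3, 1 and 3 rose and 1, 1, 2 and 1 fell with EGCG, or 2, 1, 1 and 1 rose and 2, 2, 3 and 2 fell after rescaling. Acsl5, an acyl-CoA synthetase, fell with DHEA in 4 of 4, by 0.19, 0.23, 0.27 and 0.18, and rose with EGCG in Th17n Div.1 (0.16, not called after rescaling, where it was called lower in Th17p Div.1 at -0.16). Acsl4, another synthetase, rose with EGCG in both Div.1 comparisons (0.26, not called after rescaling, and 0.63) and fell by 0.37 with DHEA in Th17n Total, and with EGCG there it was called lower after rescaling (-0.19). Fabp5 encodes a fatty acid binding protein and was abundant, at 152.6 to 427 TPM. It fell with DHEA in 4 of 4 comparisons, by 0.98, 0.51, 0.63 and 0.49 on the log2 scale, and with EGCG in 3 of 4, by 0.59, 0.22 and 0.20, and was at -0.06 ± 0.06 in Th17n Div.1, where it was called lower after rescaling (-0.19). Of 8 genes of malonyl-CoA control, the brake on Cpt1a, 6 were tested, and 3, 3, 0 and 1 rose and 2, 0, 0 and 0 fell with EGCG. Acaca, which makes malonyl-CoA, fell by 0.48 with EGCG in Th17p Total and rose by 0.53 with DHEA in Th17n Div.1. Prkag1 and Prkab1, subunits of AMP-activated kinase, which inhibits Acaca, rose with EGCG in Th17p (0.38 and 0.42, 0.20 and 0.38, the Total change of Prkab1 not called after rescaling) and fell with DHEA in Th17p Total, by 0.38 and 0.27.

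The PPAR receptors were at low levels. Ppara reached at most 0.235 TPM, Pparg 1.02 TPM and Ppargc1a 0.0713 TPM in any library, and these 3 of 8 genes of receptors and coactivators were not tested. Ppard stood at 0.256 to 1.47 TPM and had no call with either compound, nor had the coactivator Ppargc1b. Rxrb, a partner receptor, fell with EGCG in Th17n Div.1 by 0.26 and with DHEA in both Div.1 comparisons by 0.22 and 0.21, and after rescaling was also called lower with EGCG in Th17p Div.1 (-0.27). Esrra, the oestrogen-related receptor alpha and a known regulator of oxidation genes, rose with EGCG in Th17p by 0.83 ± 0.13 in Total and 0.61 ± 0.13 in Div.1, and was at -0.13 ± 0.13 and 0.11 ± 0.13 in Th17n. Of 9 other PPAR targets 3 were tested, Pdk4 being at most 0.228 TPM. Acacb, the other acetyl-CoA carboxylase, was at most 0.385 TPM. Txnip, an inhibitor of glucose uptake, rose with EGCG in 4 of 4 comparisons, by 0.77 to 1.10. Ucp2, a carrier of the inner membrane, fell with EGCG in Th17p by 0.46 and 0.45 on the log2 scale and was at -0.03 and 0.04 in Th17n. Angptl4, a secreted lipase inhibitor, had no call with either compound on the deposited scale, at -0.22 to 0.12, and was called lower with EGCG in Th17p Total after rescaling (-0.29). Whether the EGCG changes of Esrra and Ucp2 differed between the cell types was not tested.

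Across the 16 group means of log2(TPM + 1), Acadl and Acadm were the most alike pair of the 10 genes (Pearson's r = 0.93), followed by Acadm and Etfdh (0.90) and by Acadvl and Hadha (0.88). Cpt1a stood apart, at 0.09 with Acadvl, 0.03 with Hadha, -0.10 with Cpt2 and -0.37 with Plin2. The groups share cells, plate and solvent libraries, so these values describe the 16 means and carry no test. Among all other genes tested, the single most alike were 1110012L19Rik for Acadvl (0.98), Def6 for Slc25a20 (0.97), Kifc1 for Cpt1a (0.96), Sdhc for Hadha (0.96), Jkamp for Etfdh (0.96), Arl3 for Acadl (0.96), Spcs1 for Acadm (0.96), Arl16 for Hadhb (0.94), Srgap2 for Cpt2 (0.91) and Lgals3bp for Plin2 (0.89).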

How the data were processed

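The authors deposited 1 table of TPM per gene for 79 libraries made from polyadenylated RNA, and the submitters' processing notes name Trimmomatic, kallisto and mm10, with no versions. TPM keep no read depth, so the precision of each value is known only from the spread between libraries. Columns were matched to samples by name, and groups were taken from the labels. Well A4 was left out, and 1 cell type marker is not reported here. The 10 genes and the other gene lists were chosen with earlier results of these data known.

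From the table, a limma model (version 3.58.1, R 4.3.3) of log2(TPM + 1) had 1 mean for each of 16 groups over 78 libraries, and variances were moderated by empirical Bayes along their trend with the mean. Genes with at least 1 TPM in at least 4 libraries were tested (10672 of 20465). Changes are on the log2(TPM + 1) scale, which understates the change of low genes. P-values are two-sided and were adjusted by Benjamini and Hochberg over all genes within each of 24 comparisons (8 of a compound against its solvent, 2 of cell types, 2 of sorts, 4 of solvents and 8 of differences between responses), with calls at 0.05. Tables were made in Python 3.11.15 with pandas 2.3.3. The fit was tested on simulated data. P-values measure the spread between these libraries. The text names all 10 genes, and of each other list the 3 genes with the highest mean and a fixed set of 15 regulators and neighbours of the pathway. For likeness it names the gene with the highest Pearson's r over the 16 group means.

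Alternatives were a pseudocount of 0.1, no filter, rescaling by median ratio, the compared groups alone, the well column as a block, well A4 in its labelled group and each library left out. Leaving out well columns 1 and 10, those furthest from the group means, was chosen after seeing the data. Well columns were not taken to pair the libraries. The labels name no shared mouse for a column, and correlations of deviations between groups with the same column ran from -0.04 to 0.32. Columns did share a part of the deviations. On the first principal component of the deviations from the group means, column 1 averaged 0.236 ± 0.118 and column 10 -0.146 ± 0.026 (SD). The main fit treats the libraries as independent, and calls with the column as a block are given below.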

Additional observations from a re-analysis of the deposited data

Results flagged for a closer look

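Of 160 sets of libraries (10 genes in 16 groups), 3 held a library far from the others, where chance alone flags about 1 in 20. All 3 were Plin2. The Th17n EGCG Total library of replicate 1 was at 7.22 TPM, below the 13.4 to 15.5 TPM of the other 4. The Th17p EGCG Total library of replicate 2 was at 17.6 TPM and the Th17p methanol Div.1 library of replicate 8 at 18.9 TPM, both above the rest of their groups.

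Each of the 10 genes was tested for a difference of response in 4 comparisons by cell type and 4 by sort. Where any of them was called, 4.31% to 12.4% of all genes tested were called in the same direction. Whether the 10 genes exceeded these shares as a set was not tested. The response to a compound differed between groups, by the test of the difference itself, in 12 cases. With EGCG in Total, Th17p minus Th17n, these were Hadhb (0.30) and Etfdh (0.38). With EGCG in Div.1 they were Acadvl (0.21), Acadl (0.29) and Plin2 (-0.65). With DHEA they were Acadvl (-0.20) and Hadhb (-0.32) in Total, and Cpt2 (-0.52), Slc25a20 (-0.29) and Hadhb (-0.49) in Div.1. Between Div.1 and Total they were Plin2 with EGCG in Th17n (0.71) and Slc25a20 with DHEA in Th17p (-0.34). Cpt2, Acadl, Etfdh and the Div.1 difference of Hadhb kept their call without each single library. The others are given with the libraries or settings that end them in the results above, except Acadvl with EGCG, which also kept its call without each single library.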

How the results depend on the processing

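No called change of the 10 genes turned its direction under any alternative run. Of 240 changes (10 genes in 24 comparisons), a pseudocount of 0.1 changed the call of 0, no filter of 6, rescaling by median ratio of 23, well A4 in its labelled group of 9, the compared groups alone of 18 and leaving out well columns 1 and 10 of 14. The replicate block (well column) gave 7 more calls (Cpt1a with EGCG in Th17p Div.1, Acadm with DHEA in Th17n Total and in 2 differences, and Hadha, Acadl and Plin2 in 1 difference each) and lost 0 of 200, and could not be fitted for methanol against DMSO, whose well columns differ. With the block, 1 of 10 genes was called for Div.1 against Total in Th17p and for the difference of EGCG between sorts in Th17p and of DHEA in Th17n, each with 0 in the fit without it. Counts of genes called moved by over 1.5 times as follows. After rescaling they were 4 (EGCG, Th17n Div.1), 3 (DHEA, Th17n Div.1), 1 (sorts, Th17p), 4 (methanol, Th17n Div.1) and 2 each (EGCG between sorts in Th17n, DHEA between sorts in Th17p). With the compared groups alone they were 3 (DHEA, Th17n Div.1), 1 each (methanol in Th17p Div.1 and Th17n Total, DHEA between cell types in Total) and 0 each (methanol in Th17n Div.1, DHEA between sorts in Th17p). With no filter methanol in Th17n Total gave 1. With well A4, methanol in Th17n Div.1 gave 4 and EGCG between sorts in Th17n 0. Without well columns 1 and 10 the counts were 1 each (sorts in Th17p, EGCG between cell types in Total) and 0 each (methanol in Th17n Div.1, and between sorts EGCG in Th17n and DHEA in Th17p). The cause was not tested. Leaving out each library gave 3 to 7 calls for DHEA in Th17n Div.1, 0 to 1 for the sorts in Th17p, 1 to 3 and 0 to 2 for methanol in Th17n Total and Div.1, 1 to 2 for EGCG between cell types in Total, 1 to 3 and 2 to 5 for DHEA between cell types in Total and Div.1, and 0 to 1 for DHEA between sorts in Th17p and in Th17n. No read depth is kept in TPM, and 4 or 5 libraries per group limit what can be called.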
